A study of Homo sapiens with 6 samples.

Results

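The 40 genes described here encode the aminoacyl-tRNA synthetases of the cytosol and of the mitochondrion and the 3 scaffold proteins of the multi-synthetase complex. They were picked by a rule on symbols from the 61806 genes of the deposited table, with earlier results of these data known. The rule took symbols made of 1 letter and ARS, with or without a final 1 or 2, and the symbols EPRS1, EPRS, FARSA, FARSB, AIMP1, AIMP2 and EEF1E1. A final 2 marks 17 mitochondrial enzymes, with the exception of AIMP2, which is a scaffold protein of the cytosolic complex. The other 20 enzymes were grouped as cytosolic, among them GARS1 and KARS1, which are known to serve both compartments. The cells were A549, an established line from a human lung adenocarcinoma, labelled as wild type, and their poly(A) RNA was sequenced. Cells were seeded, grown for 24 h and then kept for a further 24 h with DMSO, the solvent, or with Japoflavone B, and each group has 3 libraries. The labels give the dose as 40 without a unit, and they title the treated libraries LE-532 without saying what that code stands for. The study was designed to ask which mRNAs change when Japoflavone B brings A549 cells to pyroptosis and apoptosis. All libraries come from 1 cell line, and the labels do not say whether they are separate cultures, so p-values measure only the spread between these libraries, which may be technical.

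Aminoacyl-tRNA synthetases join each amino acid to its matching tRNA and so supply the ribosome. Cytosolic and mitochondrial ribosomes draw on largely separate sets of synthetases, both encoded in the nucleus, and each enzyme belongs to class I or class II by the fold of its catalytic domain. EPRS1 carries a glutamate and a proline activity in 1 polypeptide, and several cytosolic enzymes are held in a complex by AIMP1, AIMP2 and EEF1E1. Uncharged tRNA is sensed by the kinase GCN2, encoded by EIF2AK4. Phosphorylation of the initiation factor eIF2 by GCN2 or by related kinases raises the translation of ATF4, a transcription factor whose known targets include amino acid transporters, enzymes of amino acid synthesis and several cytosolic synthetases.

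The libraries held 15298531 to 21744407 counts, with no order between the groups. Genes of the mitochondrial genome took 3.97% to 4.7% of the counts after DMSO and 8.33% to 8.58% after Japoflavone B. Of 9 genes listed as markers of A549 (EPCAM, KRT8, KRT18, KRT19, CDH1, AKR1B10, AKR1C1, ALDH1A1, ALDH3A1), 8 were lower and none higher after Japoflavone B in edgeR's test. That test called 35.4% of all genes lower. Their summed level was 5680 to 6045 FPKM after DMSO and 1630 to 1677 FPKM after treatment. Most of it came from the enzyme genes ALDH1A1 (2973 and 626 FPKM) and AKR1B10 (1589 and 622 FPKM), not from keratins or CDH1. Of 9 alveolar type II markers, 3 were measured above the filter and 2 of these, ABCA3 and LAMP3, were higher, with a summed level of 10.5 to 11.1 FPKM and 22.4 to 23.3 FPKM, nearly all of it ABCA3. LAMP3 was at 0.103 and 0.263 FPKM with overlapping FPKM, and 1 gene of the list was higher without Japoflavone B replicate 2, with the 2 FPKM filter and with limma on log2 FPKM or TPM. Among 10 markers of other cell types, PTPRC, CD3E, VWF and HBB were listed at 0 FPKM in every library, and the summed level was 4.65 to 5.16 FPKM and 0.72 to 0.91 FPKM, mostly COL1A1. These markers and the mitochondrial share moved with the treatment, and so with each result below; their part in those results was not tested. In bulk RNA, fewer cells of a kind and less RNA per cell cannot be told apart.

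After Japoflavone B, mRNAs of cytosolic synthetases were mostly higher and mRNAs of mitochondrial synthetases mostly lower. In edgeR's quasi-likelihood test across 16082 genes, with Benjamini-Hochberg adjustment and a threshold of 0.05, 14 of the 20 cytosolic genes rose, 2 fell and 4 did not pass. Of the 17 mitochondrial genes, 3 rose, 9 fell and 5 did not pass, and of the scaffold genes AIMP1 and AIMP2 rose and EEF1E1 fell. All 40 genes passed the filter on low counts, and together 19 rose and 12 fell. The same test called 70.0% of all genes, 34.7% as higher and 35.4% as lower, so a call in itself was common. The median log2 fold change was 0.49 over the cytosolic genes (range -0.20 to 1.88) and -0.22 over the mitochondrial genes, beside -0.00 over all genes tested. Changes of at least 2-fold were found for 4 cytosolic genes, all higher, and 2 mitochondrial genes, both lower, where 9.67% of all genes rose and 15% fell by that much. Scaled counts of the groups did not overlap for 32 of the 40 genes, 16 cytosolic, 13 mitochondrial and all 3 scaffold genes, against 72.4% of all genes. With limma on log2(TPM + 1), a scale on which the median of all genes was -0.17, 12 cytosolic genes rose and 5 fell, 3 mitochondrial genes rose and 9 fell, and of all 40 genes 16 rose and 15 fell.

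**Figure D1:**
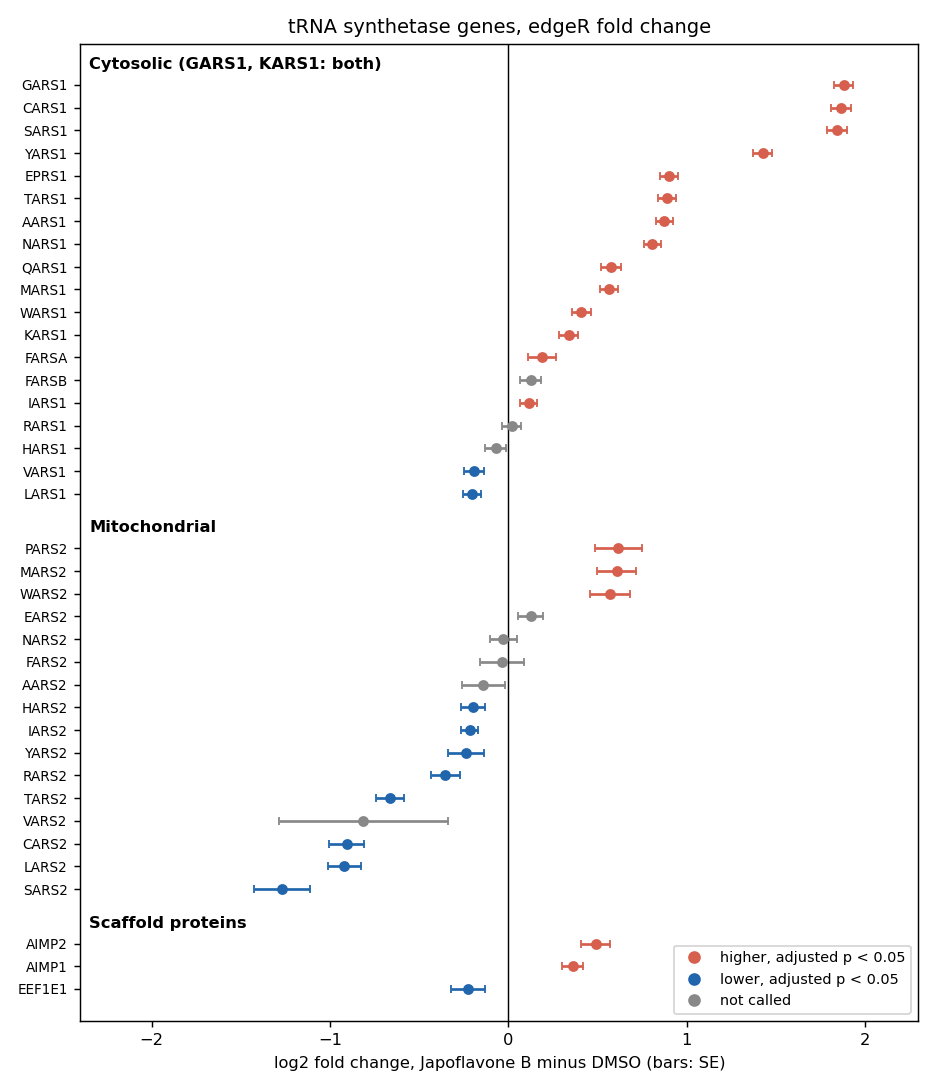
edgeR log2 fold change of the genes described, Japoflavone B minus DMSO, on the horizontal axis, with bars for the standard error (3 libraries a group), grouped by compartment and coloured by call at an adjusted p of 0.05. The cytosolic genes reach from -0.20 to 1.88 and the mitochondrial genes shown from -1.27 to 0.62.

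The strongest rises were in the cytosolic synthetases for glycine, cysteine, serine and tyrosine, followed by the double enzyme for glutamate and proline. Levels are given as FPKM, the authors' counts scaled to the exon length and to the library total, and fold changes come from edgeR, whose trimmed-mean factors place them slightly above the ratio of the FPKM means. GARS1 (ENSG00000106105; GRCh38, chr7:30580533-30634033, plus strand) encodes the glycyl enzyme of both compartments, and it stood at 7.85, 7.76 and 8.47 FPKM after DMSO and at 26.98, 28.28 and 27.28 FPKM after Japoflavone B. The groups were far apart, and GARS1 rose 3.68-fold (log2 1.88 ± 0.05, SE, adjusted p = 1.04e-21). CARS1 (chr11:3000922-3057613, minus strand), the cysteinyl enzyme, was at 6.07, 5.98 and 6.55 FPKM after DMSO and at 21.75, 20.89 and 20.4 FPKM after treatment. Every treated library lay above every DMSO library, and the rise was 3.65-fold (log2 1.87 ± 0.06, edgeR adjusted p = 5.57e-21). SARS1 (chr1:109213918-109238182, plus strand), which charges serine tRNA and the selenocysteine tRNA, went from 20.01, 22.2 and 22.35 FPKM to 71.33, 72.97 and 71.44 FPKM. Again there was no overlap, with a 3.59-fold rise (log2 1.84 ± 0.06, edgeR adjusted p = 3.94e-21).

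YARS1 (chr1:32775237-32818031, minus strand), the tyrosyl enzyme, was at 9.18, 9.8 and 9.86 FPKM after DMSO and at 24.42, 24.54 and 23.21 FPKM after Japoflavone B. The treated libraries were all higher, and the rise was 2.69-fold (log2 1.43 ± 0.05, edgeR adjusted p = 6.69e-19). EPRS1 (chr1:219968600-220046530, minus strand) was already abundant, at 47.12, 43.28 and 44.56 FPKM, and reached 76.8, 77.46 and 80.51 FPKM. Its groups did not overlap either, and it rose 1.87-fold (log2 0.90 ± 0.05, edgeR adjusted p = 4.3e-15). The first 3 of these genes changed by nearly the same factor although their DMSO levels differed: SARS1 began at 21.5 FPKM ± 1.31, GARS1 at 8.03 FPKM ± 0.387 and CARS1 at 6.2 FPKM ± 0.306 (SD, n = 3).

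**Figure D2:**
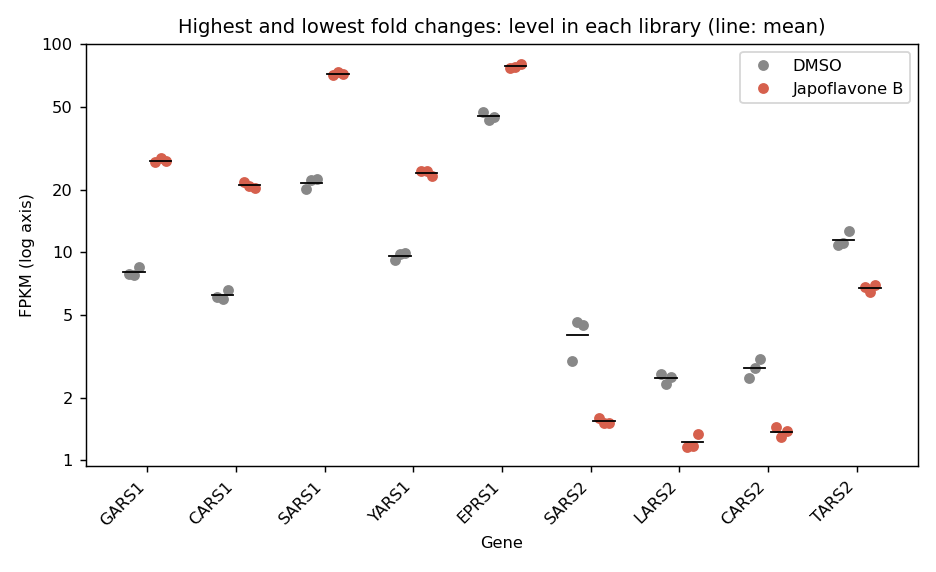
Level in each library (points, FPKM, log axis) and group mean (line) of the called genes at either end of the fold changes, DMSO in grey and Japoflavone B in red. SARS1 goes from 20.01 to 22.35 FPKM up to 71.33 to 72.97 FPKM, TARS2 goes from 10.87 to 12.59 FPKM down to 6.45 to 6.99 FPKM, and in none of the 9 genes do the groups overlap.

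Outside the multi-synthetase complex, 9 of 12 cytosolic enzymes rose, 1 fell and 2 did not pass, and the median log2 fold change was 0.84. TARS1, for threonine, went from 47.8 FPKM ± 2.32 to 82.6 FPKM ± 0.684 (SD, n = 3), a 1.85-fold rise. AARS1, for alanine, went from 28.2 FPKM ± 0.543 to 48.2 FPKM ± 0.25 and rose 1.83-fold. NARS1, for asparagine, rose 1.75-fold, from 48.0 FPKM ± 0.617 to 78.2 FPKM ± 1.56. These made a second step below the first 4 genes, and in each of them the groups were far apart. WARS1, the tryptophan enzyme, rose less, by 1.33-fold (15.5 to 19.3 FPKM). The phenylalanine enzyme is built from the products of FARSA and FARSB, and neither subunit moved much: FARSA had a log2 fold change of 0.19 with overlapping groups (edgeR adjusted p = 0.0329), a call lost in 10 of 19 alternatives and turned in sign, uncalled, in 1 more, and FARSB had 0.13 (edgeR adjusted p = 0.0545). HARS1, for histidine, did not pass (log2 -0.07), and VARS1, for valine, fell slightly (log2 -0.19 ± 0.06, edgeR adjusted p = 0.00434).

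Of the 8 enzymes of the multi-synthetase complex, 5 rose, 1 fell and 2 did not pass, with a median log2 fold change of 0.23 (range -0.20 to 0.90). After EPRS1, the largest rises were those of QARS1, for glutamine, at 1.49-fold (33.7 FPKM ± 2.8 to 46.8 FPKM ± 0.694), and MARS1, for methionine, at 1.48-fold (20.7 FPKM ± 0.367 to 28.4 FPKM ± 0.886). Neither gene's groups overlapped. MARS1 shares 982 bases with DDIT3 on the opposite strand, whose counts went from 285 to 1784 over the 3 libraries of each group, and how reads in shared bases were counted is not given in the sources used here. KARS1, for lysine, which serves both compartments, was the most abundant cytosolic member after DMSO and rose 1.26-fold, from 50.4 FPKM ± 1.36 to 59.4 FPKM ± 2.53. It shares 871 bases with TERF2IP on the opposite strand, whose counts went from 2839 to 4697 over the 3 libraries of each group. IARS1, for isoleucine, was called higher at a log2 fold change of 0.11 (edgeR adjusted p = 0.0418), while its FPKM overlapped between the groups and the call was lost in 13 of the 19 alternatives and the sign turned in 1 more. RARS1, for arginine, did not pass, at a log2 fold change of 0.02. LARS1, for leucine, fell from 10.8 FPKM ± 0.461 to 8.72 FPKM ± 0.332 (log2 -0.20 ± 0.05, edgeR adjusted p = 0.00109). The scaffold genes that rose did so by log2 0.49 ± 0.08 (AIMP2) and 0.36 ± 0.06 (AIMP1), with no overlap between groups. AIMP2 shares 1588 bases with EIF2AK1 on the opposite strand, which held 30363 counts beside 4120 of AIMP2. EEF1E1 had a log2 fold change of -0.23 ± 0.10 (edgeR adjusted p = 0.0392, a call lost in 7 alternatives), and 99.9% of its span is shared with the read-through gene EEF1E1-BLOC1S5, which held 3 counts.

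Since so many cytosolic synthetases rose together, the RefSeq promoter windows, 250 bases before to 50 bases after a start site on GRCh38.p14, were searched on both strands for TGATGNAA, letters of the kind bound by ATF4 with its C/EBP partners. Windows were matched by symbol for 33 of the 40 genes, 45 windows in all; AARS2, LARS1, VARS1, VARS2 and YARS1 were among those not matched. The letters occurred in 8 of the 33 genes, against 4.46% of the 27305 genes with a window and 3.62% of all 35116 windows. By compartment, they occurred in 7 of 16 cytosolic genes, in 1 of 14 mitochondrial genes and in none of the 3 scaffold genes. The stretches are shown because 7 of them lie at cytosolic genes that rose; each reads 5′ to 3′ on the gene's strand, with the match in capitals.
CARS1 (chr11:3057407-3057436, minus strand): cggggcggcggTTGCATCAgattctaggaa
GARS1 (chr7:30594834-30594863, plus strand): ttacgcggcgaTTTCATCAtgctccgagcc
TARS1 (chr5:33440956-33440985, plus strand): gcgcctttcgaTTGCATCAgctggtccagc
AARS1 (chr16:70289675-70289704, minus strand): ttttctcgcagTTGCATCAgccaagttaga
NARS1 (chr18:57621804-57621833, minus strand): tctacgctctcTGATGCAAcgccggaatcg
MARS1 (chr12:57488053-57488082, plus strand): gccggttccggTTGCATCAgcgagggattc
IARS1 (chr9:92293692-92293721, minus strand): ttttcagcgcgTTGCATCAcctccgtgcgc
YARS2 (chr12:32756076-32756105, minus strand): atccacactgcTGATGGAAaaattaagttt
In 6 of the 8 stretches the match is TTGCATCA, read on the gene's strand in CARS1, TARS1, AARS1, MARS1 and IARS1 and on the other strand in NARS1. GARS1 and YARS2 each hold another form of the letters, and in GARS1, CARS1 and TARS1 the match lies in 1 of 2 windows. The 7 cytosolic genes with a match had log2 fold changes of 0.11 to 1.88 and were all called higher, IARS1 with the weak call given above. The 9 cytosolic genes with a window and no match had log2 fold changes of -0.07 to 1.84, with 6 higher and 3 that did not pass, so a rise also occurred without these letters, as in SARS1. LARS1 and VARS1, the cytosolic genes called lower, had no window, so neither group could hold a gene that fell. YARS2, the mitochondrial gene with a match, was called lower. A match is a description of the sequence and not a measured binding site.

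Other motifs were found in both compartments. The letters CCGGAAG, of the kind bound by ETS factors, lay in 17 of the 33 genes (9 of 16 cytosolic, 7 of 14 mitochondrial and 1 of 3 scaffold genes), against 12.2% of all genes with a window. HARS1 and HARS2 are both among them, and their windows overlap on opposite strands. The same stretch was therefore counted in both compartments. The E-box CACGTG lay in IARS1, MARS2, EARS2, CARS2 and AIMP2, 5 of 33 against 8.77%. The NRF1 palindrome lay in MARS2 alone among the 33, against 1.52%. Neither the ETS letters nor the E-box kept to one direction of change: the ETS letters lay in SARS1, which rose, and in SARS2, which fell.

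Among the mitochondrial enzymes, the one for serine fell by more than 2-fold. SARS2 (chr19:38915266-38930763, minus strand) was at 3.01, 4.6 and 4.45 FPKM after DMSO and at 1.6, 1.52 and 1.52 FPKM after treatment. The first DMSO library was below the other DMSO libraries but still above all treated ones, and SARS2 fell 2.41-fold (log2 -1.27 ± 0.16, edgeR adjusted p = 5.43e-08). An unnamed gene model covers 99.1% of the SARS2 span on the same strand and held 2 counts in all.

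The leucine and cysteine enzymes of the mitochondrion fell by nearly the same factor as each other. LARS2 (chr3:45388561-45554726, plus strand) was at 2.6, 2.34 and 2.52 FPKM and then at 1.16, 1.17 and 1.34 FPKM. CARS2 (chr13:110641412-110713603, minus strand) was at 2.5, 2.79 and 3.07 FPKM and then at 1.44, 1.3 and 1.39 FPKM. In both genes every treated library was below every DMSO library, with falls of 1.89-fold for LARS2 (log2 -0.92 ± 0.09, edgeR adjusted p = 1.07e-09) and 1.88-fold for CARS2 (log2 -0.91 ± 0.10, edgeR adjusted p = 3.62e-09). TARS2 (chr1:150487414-150507602, plus strand), for threonine, went from 10.87, 11.07 and 12.59 FPKM to 6.78, 6.45 and 6.99 FPKM. Its groups were apart as well, with a fall of 1.59-fold (log2 -0.67 ± 0.08, edgeR adjusted p = 1.94e-08).

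Smaller falls were called for RARS2 (log2 -0.35 ± 0.08), YARS2 (-0.24 ± 0.10, edgeR adjusted p = 0.0336, a call lost in 5 alternatives), IARS2 (-0.22 ± 0.05) and HARS2 (-0.20 ± 0.07). DNM1L covers 63.9% of the YARS2 span on the opposite strand and went from 8865 to 6264 counts over 3 libraries, beside 2198 counts of YARS2 over all 6. HARS2 shares 626 bases with ZMAT2 on the same strand, which went from 6084 to 5223 counts, beside 5789 counts of HARS2 over all 6. IARS2, for isoleucine, had the highest FPKM of all 40 genes after DMSO, at 80.1 FPKM ± 1.72, and stood at 64.1 FPKM ± 0.205 after treatment (SD, n = 3). That rank depends on exon length. In the DMSO libraries IARS1 held 7984, 7884 and 5475 counts, against 6899, 7041 and 5171 of IARS2. IARS2 alone made up 46.5% of the summed FPKM of the mitochondrial enzymes after DMSO and 48.6% after Japoflavone B. The 3 mitochondrial genes that rose were PARS2, for proline (3.21 FPKM ± 0.407 to 4.63 FPKM ± 0.216), MARS2, for methionine (3.93 FPKM ± 0.216 to 5.56 FPKM ± 0.503), and WARS2, for tryptophan (3.07 FPKM ± 0.215 to 4.23 FPKM ± 0.41). Their log2 fold changes were 0.62, 0.61 and 0.57, and the treated libraries were all above the DMSO libraries in each. The whole span of MARS2 is shared with another gene model, which held 7 counts. EARS2 (log2 0.13), NARS2 (-0.03), FARS2 (-0.04) and AARS2 (-0.14) did not pass. VARS2 did not pass either (log2 -0.81 ± 0.47, edgeR adjusted p = 0.128). It held 90 counts over the 6 libraries, which were spread widely within groups (32, 22 and 7 after DMSO). Without the third DMSO library VARS2 was called lower (log2 -1.11, edgeR adjusted p = 0.0378). The whole span of VARS2 is shared on the same strand with an unnamed gene model, which held 27 counts. How reads in shared bases were counted is not given, so the low level of VARS2 may depend on it.

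Both structural classes took part in both directions. In the cytosol, 6 of 9 class I genes rose and 2 fell, and 7 of 10 class II genes rose and none fell, leaving aside EPRS1, which holds a domain of each class. In the mitochondrion, 2 of 9 class I genes rose and 5 fell, and 1 of 8 class II genes rose and 4 fell.

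The compartments were also compared by the ratio of the cytosolic to the mitochondrial gene for the same amino acid within a library, which no scaling of the library can alter. Glycine, lysine and glutamine have no pair here, since GARS1 and KARS1 serve both compartments and QARS1 has no partner among the members. Of 18 pairs, the ratio was higher after Japoflavone B in 16 and lower in 2. In 12 of the 16 the libraries did not overlap, while no pair was lower without overlap. Scaled counts of single genes did not overlap for 72.4% of all genes, and no such share was worked out for other pairs of genes. The median change of the log2 ratio was 0.64. An exact two-sided permutation test of 3 against 3 libraries gives p = 0.1 for such a pair, the smallest it can give, and 0.15 after Benjamini-Hochberg adjustment over the 18 pairs, so that no pair could pass 0.05. EPRS1 and FARS2 each enter 2 pairs, which are therefore not separate measurements.

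The serine pair moved most. The FPKM of SARS1 was 6.65, 4.83 and 5.02 times that of SARS2 in the DMSO libraries and 44.6, 48.0 and 47.0 times in the treated libraries. The mean ratio went from 5.5 ± 1.00 to 46.5 ± 1.76 (SD, n = 3), an 8.52-fold change made up of a rise of SARS1 and a fall of SARS2. The cysteine pair CARS1/CARS2 was at 2.43, 2.14 and 2.13 and then at 15.1, 16.1 and 14.7, a 6.83-fold change with no overlap. For tyrosine, YARS1/YARS2 was at 0.991, 0.862 and 1.01 and then at 3.02, 3.07 and 2.90 (3.15-fold change). The similar FPKM in DMSO depended on the exon lengths, 9775 bases for YARS1 and 2147 for YARS2. By counts, YARS1 was above YARS2 in both groups, with mean log2 ratios of 2.11 after DMSO and 3.77 after treatment. The threonine pair went from 4.64, 4.17 and 3.71 to 12.3, 12.7 and 11.8 (2.95-fold), with TARS1 and TARS2 moving in opposite directions.

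**Figure D3:**
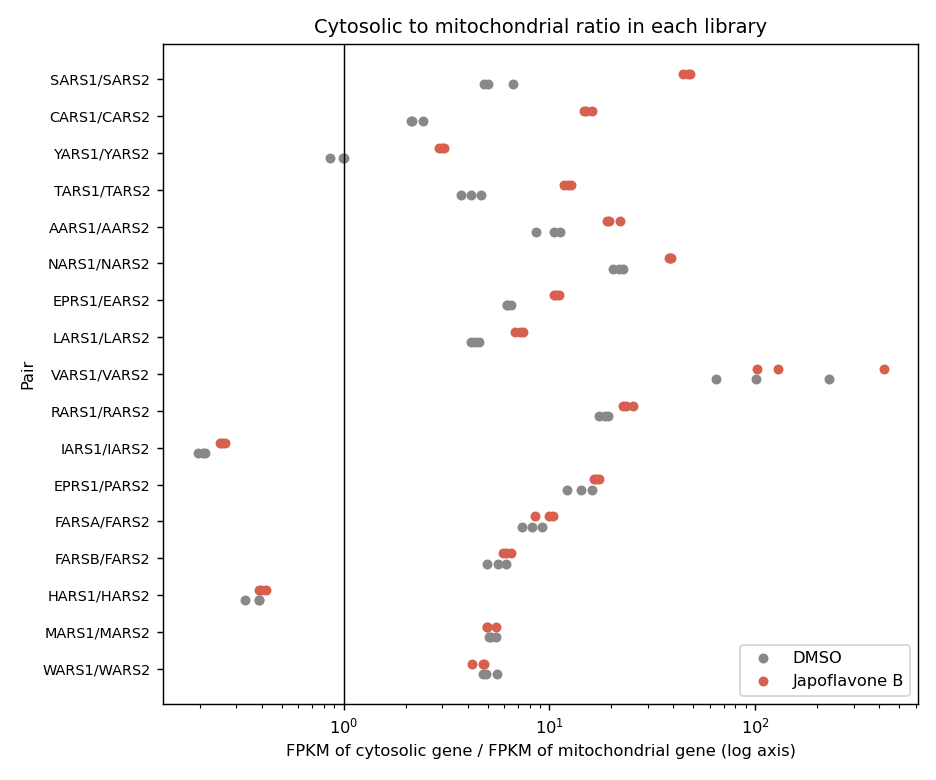
Ratio of the cytosolic to the mitochondrial gene's FPKM in each library (log axis) for 17 of the 18 pairs, DMSO in grey and Japoflavone B in red, sorted by the change of the ratio. The treated libraries lie to the right of all DMSO libraries in 11 of the pairs shown, and the black line marks equal FPKM.

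The pairs for methionine and tryptophan were the ones with a lower ratio, by -0.04 and -0.15 on the log2 scale with overlapping libraries; in both, the cytosolic and the mitochondrial gene had risen. The valine pair spread widely within each group (the VARS1/VARS2 ratio was 64.2 to 228 after DMSO and 102 to 422 after treatment). There VARS2 has few counts and shares its whole span with another gene model. The cytosolic gene had the higher mean FPKM in 15 of 18 pairs after DMSO and in 16 after Japoflavone B. The pair that crossed 1 was tyrosine (mean ratios 0.953 and 3.00), on the FPKM scale only, as given above. The isoleucine and histidine pairs were below 1 in both groups, with mean ratios of 0.205 and 0.258 for IARS1/IARS2 and of 0.37 and 0.403 for HARS1/HARS2. That order depends on the exon length used for FPKM: IARS1 is listed with 22418 exonic bases and IARS2 with 4135, and IARS1 had the more counts, 41387 against 33426 over the 6 libraries.

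Summed over the 20 cytosolic genes, synthetase mRNA took 0.3075%, 0.3053% and 0.3104% of the counts after DMSO and 0.4657%, 0.4664% and 0.4656% after Japoflavone B. The treated libraries were all higher and close to one another, and the mean share rose from 0.308% ± 0.00255 to 0.466% ± 0.000406 (SD, n = 3), a ratio of 1.51. The 17 mitochondrial genes took 0.08487%, 0.08311% and 0.08635% and then 0.06222%, 0.0606% and 0.06212%, a ratio of 0.727. With IARS2 left out the mitochondrial share went from 0.0517% to 0.0351%, a ratio of 0.68, so the lower sum did not rest on that gene. Per exon length, the summed level went from 482 FPKM ± 6.59 to 727 FPKM ± 3.28 for the cytosolic genes and from 172 FPKM ± 2.42 to 132 FPKM ± 1.67 for the mitochondrial genes. The scaffold genes went from 0.0121% to 0.0139% of the counts. These shares were not tested.

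**Figure D4:**
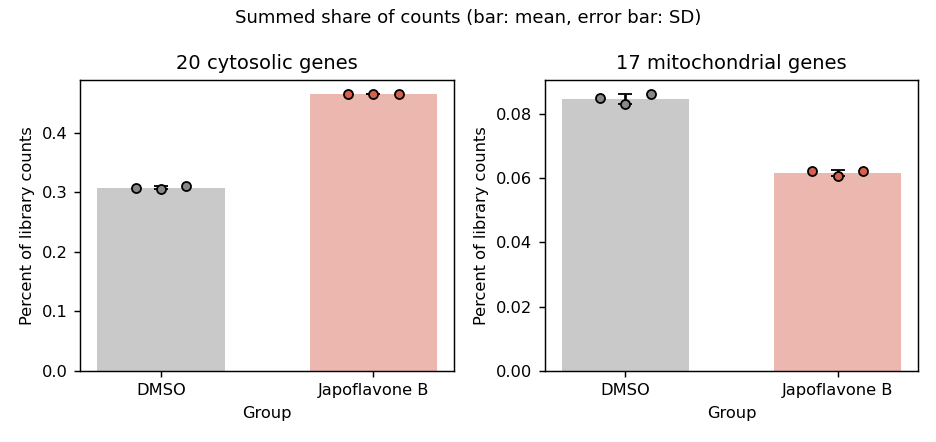
Summed share of library counts, in percent, of the 20 cytosolic genes (left) and the 17 mitochondrial genes (right); bars are means of 3 libraries, error bars the SD, points the libraries, and the vertical scales differ. The cytosolic share goes from 0.308% to 0.466% and the mitochondrial share from 0.0848% to 0.0617%.

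Genes that work beside the synthetases were counted from lists, which were drawn up with earlier results of these data known. Each count below stands beside 34.7% of all genes called higher and 35.4% called lower. The list around uncharged tRNA sensing and ATF4 had 12 of 16 genes higher and 2 lower, and its median log2 fold change was 0.54. ATF4 mRNA rose 3.12-fold, from 73.7 FPKM ± 3.48 to 214 FPKM ± 4.02 (SD, n = 3). TRIB3, a pseudokinase that restrains ATF4, rose 4.77-fold. PPP1R15A, which directs the phosphatase of eIF2, rose 3.68-fold, and CEBPG, a dimer partner of ATF4, rose 2.70-fold. EIF2S3, a subunit of eIF2, was lower (log2 -0.30). The call of EIF2AK2, the kinase PKR, was weak (log2 -0.16, edgeR adjusted p = 0.0262, with overlapping scaled counts), and the list held 1 lower gene in place of 2 with DESeq2, with no abundance trend, and without DMSO replicate 1 or Japoflavone B replicate 1 or 2. EIF2AK4, the sensor of uncharged tRNA, did not pass, at 6.33 FPKM ± 0.325 and 6.13 FPKM ± 0.108. These 3 genes were chosen for mention after their values were seen.

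Among amino acid genes known as ATF4 targets, 15 of 20 rose and 3 fell, and the median log2 fold change was 0.84. ASNS, asparagine synthetase, was at 0.54, 0.54 and 0.51 FPKM after DMSO and at 5.63, 5.66 and 5.82 FPKM after Japoflavone B. It rose 11.5-fold from a low level, and no library of one group came near the other. MTHFD2, of mitochondrial folate metabolism, rose 3.92-fold, PSAT1, of serine synthesis, 2.94-fold and SLC7A1, a transporter of cationic amino acids, 2.61-fold. PSPH, the last enzyme of serine synthesis, fell 1.44-fold, and SLC7A5, a leucine transporter, and SLC6A9, a glycine transporter, had log2 fold changes of -0.14 and -0.43 (edgeR adjusted p = 0.0116 and 0.0434, the latter with overlapping libraries; all 3 were chosen for mention after their values were seen). The count of lower genes was 1 without Japoflavone B replicate 3, and 5 with library totals alone and with limma on log2 FPKM or TPM, where log2(TPM + 1) gave 13 higher. Within serine synthesis, PSAT1 and PSPH thus moved in opposite directions.

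Elongation and initiation factors, which work with charged tRNA at the ribosome, were counted from 1 list per compartment. The cytosolic list holds elongation factors alone, while the mitochondrial list also holds initiation, release and recycling factors, so the 2 counts are not like for like. Of 6 cytosolic elongation factor genes, 5 rose and none fell, and the median log2 fold change was 0.71. EEF2, the translocase, went from 543 FPKM ± 26.8 to 1216 FPKM ± 29.8 and rose 2.40-fold. EEF1D and EEF1B2, of the exchange factor complex, rose 2.31-fold and 1.56-fold, and EEF1A2, which carries charged tRNA to the ribosome, rose 1.72-fold. Of 10 mitochondrial translation factor genes, 5 rose, 1 fell and 4 did not pass, with a median of 0.13. The gene that fell, TSFM (log2 -0.52, edgeR adjusted p = 0.0348, chosen for mention after its values were seen), lost its call with DESeq2 and without DMSO replicate 3 or Japoflavone B replicate 1 or 3 and was not tested under the 2 FPKM filter, while 2 genes were lower with library totals alone and on both log2 FPKM scales. With limma on log2(TPM + 1) 4 rose and 4 fell. The initiation factors MTIF3 and MTIF2 rose 1.84-fold and 1.5-fold, the recycling factor MRRF 1.62-fold and the release factor MTRF1L 1.42-fold, so these mRNAs rose while 9 mitochondrial synthetases fell. Mitochondrial elongation factors did not rise in this way. TUFM was called higher with overlapping groups (log2 0.17, edgeR adjusted p = 0.00713), GFM1 did not pass (log2 0.04), and TSFM fell as given above. TUFM and GFM1 were also chosen for mention after their values were seen.

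Among partners of mitochondrial charging, 3 of 6 genes rose and 2 fell, and the median log2 fold change was 0.22; on log2(TPM + 1) 1 rose and 2 fell, and with the 2 FPKM filter, which tests fewer genes, 1 fell. MTFMT, which formylates the initiator methionyl-tRNA, rose 1.45-fold, and QRSL1, a subunit of the amidotransferase that makes mitochondrial glutaminyl-tRNA, rose 1.33-fold. GATB, another subunit of that enzyme, fell 1.71-fold, and TRNT1, which adds the CCA end of tRNA, fell 1.57-fold. Of 6 synthetase paralogs and editing factors outside the symbol rule, 1 rose and 2 fell (median -0.34), and on log2(TPM + 1) none rose and 2 fell. DTD2 and DTD1, deacylases that remove wrongly attached amino acids from tRNA, fell 1.94-fold and 1.64-fold. ANKRD16, a partner of alanyl-tRNA editing, rose 1.34-fold, and AARSD1, which edits mischarged alanine tRNA, did not pass, at 1.43 FPKM ± 0.16 and 1.18 FPKM ± 0.17.

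In the list for tRNA transcription and end processing, 13 of 43 genes rose, 18 fell and 12 did not pass. Over all genes, 34.7% were called higher and 35.4% lower. The median log2 fold change of the list was -0.06. With limma on log2(TPM + 1), 4 of the 43 genes rose and 23 fell. GTF3C6, a subunit of the transcription factor TFIIIC, fell 6.32-fold, from 33.4 FPKM ± 3.59 to 4.9 FPKM ± 0.19 (SD, n = 3), and POLR3D, a subunit of RNA polymerase III, rose 3.01-fold, from 8.3 FPKM ± 0.338 to 23.3 FPKM ± 0.8. RPP25 and POP1, subunits of RNase P, fell 3.56-fold and 2.74-fold. The libraries were made from poly(A) RNA, so tRNA itself and its charging were not measured.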

How the data were processed

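RNA-seq of poly(A) RNA from A549 cells was used, 3 libraries after DMSO and 3 after Japoflavone B, grouped by the treatment label. The authors' deposited table holds whole-number counts per gene and FPKM values. Per the submitters' processing notes, the build is GRCh38 and the tools include HISAT2 2.0.1, cutadapt 1.9.1, DESeq2 and HTSeq 0.6.1; annotation release, strand setting and the handling of reads in overlapping genes are not given in the sources used here. The deposited FPKM equal counts divided by the exon length and the column total, in the usual scaling, within 0.005. These FPKM carry the library total, while fold changes carry trimmed-mean factors (1.03 to 1.04 for DMSO, 0.957 to 0.970 for Japoflavone B).

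Counts of all genes were fitted with edgeR 4.0.16 in R 4.3.3 (quasi-likelihood, group as the single term) on the 16082 genes that filterByExpr kept at min.count 10 and min.total.count 15, with Benjamini-Hochberg adjustment over these and a threshold of 0.05. Standard errors are the log2 fold change divided by the root of the F statistic. Pair ratios used log2(count + 0.5). Members and lists were chosen with earlier results of these data known. By rule, every member is named, except that values of 2 members, which stay in the counts, sums and medians, are not reported here, the 5 highest and 5 lowest called fold changes are given for every library, and each list gives up to 4 genes, those lowest in adjusted p that reach 1 FPKM in the higher group. Libraries were not paired by replicate number in the main fit. The deviations of libraries with the same number correlated at 0.024, 0.013 and -0.077, so no shared shift was seen. These values cannot show whether such libraries were handled together. Replicates differed beyond sampling noise. Alternatives were other filters, scalings and tests (DESeq2 1.42.0, limma 3.58.1 on log2 FPKM and TPM), mitochondrial genome genes left out, the replicate block and each library left out in turn. The scripts were tested on simulated data. Depth was 15298531 to 21744407 counts per library.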

Additional observations from a re-analysis of the deposited data

How the results depend on the processing

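Over 19 alternatives, 25 of the 38 genes described kept their direction and their side of the threshold in every one, and of 719 fold changes 664 did so, 36 lost a call, 7 gained one and 12 changed sign. Lost calls concerned IARS1 in 13 alternatives, FARSA in 10, EEF1E1 in 7, YARS2 in 5 and AIMP1 in 1. With single libraries left out, IARS1 kept its call only without DMSO replicate 1, YARS2 without DMSO replicates 1 and 3, EEF1E1 without DMSO replicate 2, and FARSA without DMSO replicates 2 and 3 and Japoflavone B replicate 3, while EARS2 without DMSO replicate 1 and FARSB and VARS2 without DMSO replicate 3 gained one. Sign changes concerned genes near 0. RARS1 was at -0.03 with a mean of at least 2 FPKM, at -0.08 with library totals alone, at -0.08 with limma on log2(FPKM + 1) and on log2(FPKM + 0.1), and at -0.20 on log2(TPM + 1). On log2(TPM + 1), EARS2 was at -0.08, FARSB at -0.09, FARSA at -0.03 and IARS1 at -0.10, the median of the 40 genes was -0.09 and 5 cytosolic genes were lower in place of 2. That scale has a median of -0.17 over all genes, and 35% of its calls were higher, against 49.5%; library totals gave -0.11 and 42.4%. HARS1 was called lower on log2(TPM + 1), as was RARS1, and also on log2(FPKM + 0.1) and with library totals. Without DMSO replicate 2, AARS2 was at 0.00 (range over the libraries left out -0.21 to 0.00), and without DMSO replicate 3, NARS2 was at 0.01 (range -0.08 to 0.01) and FARS2 at 0.09 (range -0.12 to 0.09). Without Japoflavone B replicate 1 the change of the log2 VARS1/VARS2 ratio was 0.00, in a range of 0.00 to 1.03.

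Leaving out each library in turn gave 17 to 19 genes higher and 10 to 12 lower, with 12 to 14 and 2 among cytosolic and 3 to 4 and 8 to 10 among mitochondrial enzymes, 12 to 15 pairs without overlap, and share ratios of 1.51 to 1.52 and 0.72 to 0.734. With the mitochondrial genome left out of the total the share ratios were 1.58 and 0.759, and with IARS2 left out, an alternative chosen after seeing the data, the mitochondrial ratio was 0.68. With the replicate block 18 genes rose and 12 fell: IARS1 lost its call (log2 0.11, edgeR adjusted p = 0.0739), and no other call changed. The causes were not tested.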
